A study of Danio rerio with 12 samples.

Results

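Genes that the tumour suppressor p53 switches on, or that switch p53 off, were examined in zebrafish embryos at 24 hours after fertilisation whose fathers had been fed or starved. Of the 7 genes mdm2, cdkn1a, ccng1, gadd45aa, phlda3, sesn1 and bbc3, chosen by name, 6 were found among the 13680 genes of the deposited table, each in all 12 library columns. The remaining gene, bbc3, was not analysed here. Eggs of wild-type females that had all been fed were fertilised in vitro with sperm of several fed or several starved males, and AB strain embryos were taken whole from each clutch, 1 to 3 for each library. There were 6 libraries of fed-father embryos and 6 of starved-father embryos, and only the fathers' feeding differs between the groups in the labels. The length of the starvation is not given in the labels used here. Each library carries a description code: replicates 1 to 4 of the groups share the codes 1118, 1203, 1210 and 1219, and replicates 5 and 6 of both groups share the code 1242 with the letters D and E. Whether libraries shared fathers is not stated in the labels. The p-values thus reflect only how these libraries of 1 to 3 embryos spread, which may be technical in part, and not how fathers differ.

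The p53 protein is a transcription factor that cells stabilise when DNA is damaged, when ribosomes are built wrongly or when other stress occurs. Its best known targets halt the cell cycle, start apoptosis, repair DNA or adjust metabolism, and one of them, mdm2, encodes the ubiquitin ligase that degrades p53, which closes a negative feedback loop. In zebrafish embryos, loss of mdm2 lets p53 accumulate and causes widespread apoptosis, and p53 is a usual cause of cell death after DNA damage or after injection of toxic reagents. Because p53 is controlled largely at the level of the protein, the transcripts of its targets are commonly read as a sign of its activity.

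RNA was sequenced from the 3' end of transcripts, so that reads come from the transcript end irrespective of the length of the gene. The values are reads scaled by 1 size factor per library, and 1 read was worth between 0.234 and 0.374 units. The recovered reads came to 2950739 to 3934765 per library over the listed genes. Rows existed for skeletal muscle (25 of 25), neural (20 of 20), blood (12 of 12) and yolk layer markers (20 of 22). Of these, all but the blood gene gata1a, at 0 in starved replicate 2, were present in every library, as in a whole embryo. Libraries differed in make-up: the summed value of the muscle markers was 5874 in fed replicate 4 and 7795 in fed replicate 5, against 12096 to 28315 in the other 10 libraries, and starved replicates 2 and 5 had the highest scores of 16 immediate early genes. In bulk libraries fewer cells of a type and less RNA per cell cannot be told apart.

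None of the 6 genes was shown to differ between embryos of starved and of fed fathers beyond the spread between libraries. With limma on log2(value + 1), 0 of the 6 passed an adjusted p below 0.05, against 0% of all genes (0 of 13680), and in 0 of the 6 did the groups not overlap, against 0.234%. Of the 6, 0 had an unadjusted p below 0.05, against 5.54% of all genes (758). On recovered reads edgeR and DESeq2 also called 0 genes, with 649 and 754 at an unadjusted p below 0.05. These fits took no account of the pairing by replicate number. With that number as a block, ccng1 alone of the 6 had an unadjusted p below 0.05 (limma, 0.0209, adjusted p = 0.427), against 9.21% of all genes. All 6 mean log2 values were lower in starved-father embryos, as they were for 52.0% of all genes, with a median difference of -0.14 on the log2 scale against -0.01 over all genes. For mdm2 and gadd45aa the plain means were higher in starved-father embryos, so their direction depends on the scale. In the authors' deposited table, which holds 0.768% of genes at an FDR below 0.05 and 1.06% below 0.1, the 6 were among neither, and the smallest FDR among the 6 was 0.474, for ccng1.

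The 6 genes lay at very different levels, and since reads were taken at transcript ends these levels were set side by side without a correction for length. How fully the reads of each gene were counted was not examined, so the order is one of counted reads. The order by the mean value over all 12 libraries was ccng1 (104), sesn1 (47.3), mdm2 (17.3), cdkn1a (5.07), phlda3 (3.82) and gadd45aa (1.44). These means lay above those of 93.3%, 85.4%, 66.4%, 35.1%, 27.7% and 4.98% of the listed genes. In each of the 12 libraries ccng1 was above sesn1, sesn1 above mdm2, and mdm2 above cdkn1a. The lower neighbours did not separate: cdkn1a was above phlda3 in 7 of 12 libraries and phlda3 above gadd45aa in 9 of 12. The 3 low genes rest on few reads, 0 to 36 in any library.

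**Figure D1:**
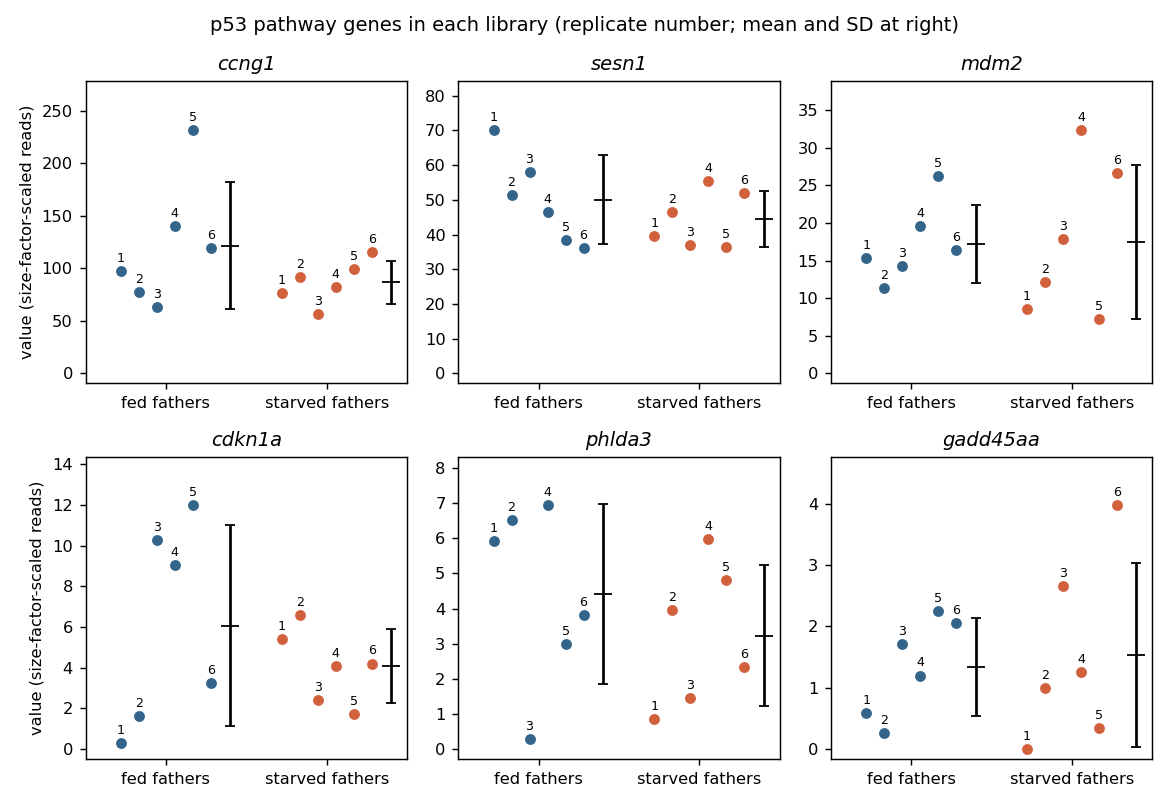
Value (size-factor-scaled reads) of each of the 6 genes in each library, by paternal group, with the replicate number above each point and the mean with SD at the right of each group (n = 6 each). The groups overlap in every panel, and the highest ccng1 value, 232, belongs to fed replicate 5.

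The feedback regulator mdm2 (ENSDARG00000033443, chromosome 4, bases 23125689 to 23136195, build GRCz11) was at nearly equal mean values in the groups. The lowest, median and highest values were 11.4, 15.9 and 26.2 in fed-father embryos and 7.20, 15.0 and 32.4 in starved-father embryos. The starved range enclosed the fed range, with its highest values in replicates 4 and 6 and its lowest in replicate 5. The means were 17.2 ± 5.15 and 17.5 ± 10.2 (SD, n = 6 each), with a log2 difference of -0.13 ± 0.31 (SE, 95% interval -0.77 to 0.52; limma adjusted p = 0.983; two-sided exact permutation p = 0.740). Between libraries of the same replicate number mdm2 was higher in starved-father embryos in 4 of 6 and lower in 2, and the widest gap was in replicate 5, at 26.2 against 7.20.

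Among other regulators and relatives of p53 (18 of 20 with a row), 10 lay higher and 8 lower on the log2 scale in starved-father embryos, the median difference being 0.02 against -0.01 over all genes, and 0 passed limma's test.

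In this list the smallest p-values were those of chek2, tp63, atr and usp7, and 0 of these 4 passed. The checkpoint kinase gene chek2, whose product phosphorylates p53 after DNA breaks, was at 9.65 ± 4.37 in fed-father embryos and 6.27 ± 2.52 in starved-father embryos (SD, n = 6 each; log2 difference -0.51 ± 0.32, SE; limma adjusted p = 0.896). The family member tp63, needed for the epidermis, was at 41.1 ± 11.99 and 50.7 ± 15.2. The deubiquitinase gene usp7, whose product stabilises mdm2 protein, was at 101 ± 27.6 and 112 ± 19.3, and the kinase gene atr at 2.39 ± 1.18 and 3.28 ± 1.43. The mdm2 relative mdm4, named for its role and not by the rule for named genes, was at 33.3 ± 3.01 and 36.1 ± 11.2, with its highest value, 58.1, in starved replicate 2.

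Cyclin G1, the product of ccng1 (ENSDARG00000076667, chromosome 14, bases 22129096 to 22140213), is a p53 target known in mammals to bind protein phosphatase 2A and to feed back on mdm2. It was the most abundant of the 6 and the one with the smallest p. The lowest, median and highest values were 63.7, 108 and 232 in fed-father embryos and 56.2, 86.9 and 115 in starved-father embryos. Only fed replicates 4, 5 and 6 lay above every library of starved fathers, and the other 3 libraries of fed fathers fell within their range. The means were 122 ± 60.7 and 86.9 ± 20.3 (SD, n = 6 each), and the log2 difference was -0.39 ± 0.24 (SE, 95% interval -0.88 to 0.11), which did not pass (limma unadjusted p = 0.122, adjusted p = 0.896; two-sided exact permutation p = 0.242). Both tests ignore the pairing by replicate number. With that number as a block the SE was 0.16, and ccng1 again did not pass (limma unadjusted p = 0.0209, adjusted p = 0.427).

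Between libraries of the same replicate number ccng1 was lower in starved-father embryos in 5 of 6, as were 13.6% of all genes in at least 5 of 6. The gap was widest in replicate 5, at 232 against 99.5, and in replicate 4, at 140 against 82.4, while replicate 6 was nearly level at 119 against 115. Fed replicates 5 and 4 are the libraries with the lowest muscle marker sums, and they also had the highest scores of the yolk list (1.16 and 0.90). Without these 2 libraries the log2 difference of ccng1 was -0.04 (limma adjusted p = 0.996). They also hold the highest ccng1 values, so leaving them out had to make the difference less negative. Over single libraries left out it ran from -0.54 to -0.17. These ends were without fed replicate 3 (limma adjusted p = 0.745) and without fed replicate 5 (0.999). The part of muscle or yolk content in these values was not tested.

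**Figure D2:**
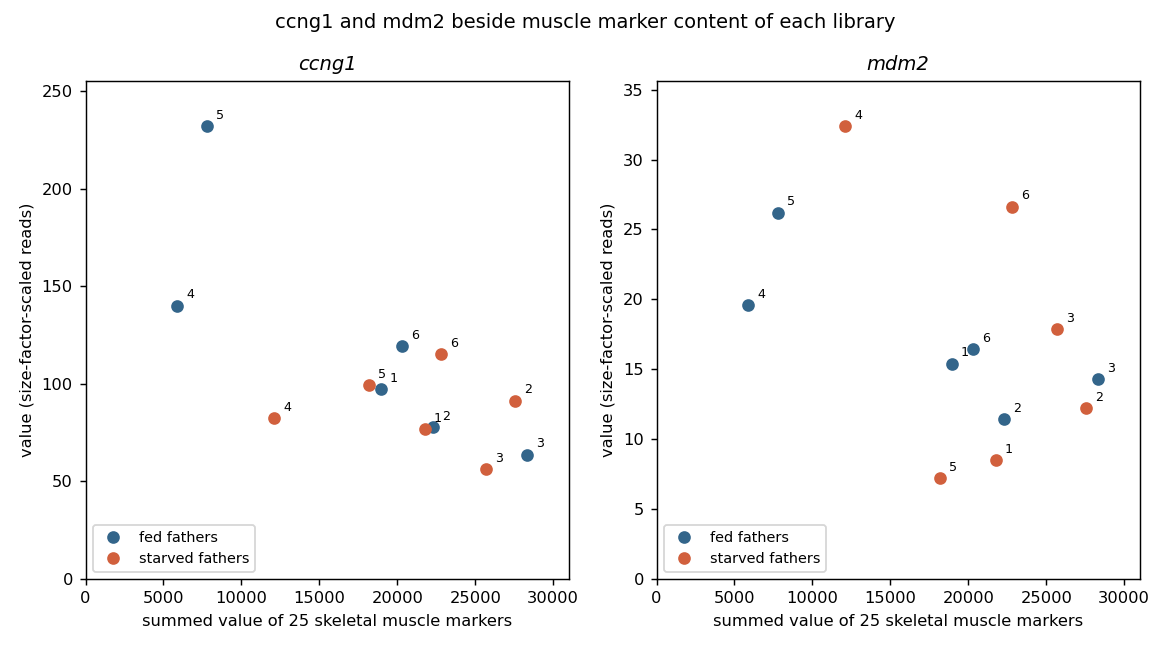
Value of ccng1 (left) and of mdm2 (right) against the summed value of 25 skeletal muscle markers in each of the 12 libraries, labelled by replicate number (values are size-factor-scaled reads). Fed replicates 4 and 5 have the lowest muscle sums and the highest ccng1 values, while the highest mdm2 value, 32.4, is in starved replicate 4.

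The cyclin-dependent kinase inhibitor p21, encoded by cdkn1a (ENSDARG00000076554, chromosome 22, bases 603382 to 607812), is the main effector of cell cycle arrest by p53. The lowest, median and highest values were 0.30, 6.14 and 11.98 in fed-father embryos and 1.72, 4.15 and 6.60 in starved-father embryos. The libraries of fed fathers fell apart into replicates 3, 4 and 5, between 9.04 and 11.98, and replicates 1, 2 and 6, between 0.30 and 3.23, so that the starved range lay inside the fed range. At the edges of that gap, 11 reads in fed replicate 6 gave a 95% exact Poisson interval of 1.61 to 5.78, and 30 reads in fed replicate 4 gave 6.10 to 12.9. These intervals cover counting error only. The split was read off the values and follows no label, since fed replicates 5 and 6 share a description code. The means were 6.08 ± 4.95 and 4.07 ± 1.81 (SD, n = 6 each), and the log2 difference was -0.14 ± 0.48 (SE, 95% interval -1.14 to 0.86; limma adjusted p = 0.988; two-sided exact permutation p = 0.820).

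The stress sensor gene gadd45aa (ENSDARG00000043581, chromosome 2, bases 10280645 to 10284572), whose mammalian relative halts cells after DNA damage, was close to the floor. The lowest, median and highest values were 0.27, 1.46 and 2.25 in fed-father embryos and 0, 1.13 and 3.97 in starved-father embryos. The reads behind these values numbered 1 to 7 and 0 to 17. Starved replicate 1 had 0 reads, which allows a value of up to 0.852 (3 reads), and starved replicate 6 had the highest value. The log2 difference was -0.02 ± 0.42 (SE, 95% interval -0.90 to 0.86; limma adjusted p = 0.999; two-sided exact permutation p = 0.961).

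Of the other arrest genes (15 of 19 with a row), 5 lay higher and 10 lower on the log2 scale in starved-father embryos, the median difference being -0.08 against -0.01 over all genes, and 0 passed limma's test. The 4 with the smallest p were cdkn1ca, ccng2, rprmb and btg1. The inhibitor gene cdkn1ca, a relative of cdkn1a that restrains cell division during development, ran from 41.5 to 54.5 in fed-father embryos and from 28.7 to 44.6 in starved-father embryos, and was lower in 6 of 6 same-numbered pairs, as were 2.70% of all genes. Its log2 difference was -0.36 ± 0.17 (SE; limma unadjusted p = 0.0384, adjusted p = 0.885). The second cyclin G gene, ccng2, was at 17.2 ± 4.59 and 12.4 ± 5.06, and the antiproliferative gene btg1 at 472 ± 41.5 and 432 ± 64.5 (SD, n = 6 each). The arrest gene rprmb was at 1.27 ± 1.59 and 2.15 ± 1.60, close to the floor.

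The pleckstrin homology protein of phlda3 (ENSDARG00000037804, chromosome 23, bases 5756442 to 5759242) is a p53 target that in mammals restrains the survival kinase AKT. The lowest, median and highest values were 0.29, 4.87 and 6.93 in fed-father embryos and 0.85, 3.15 and 5.97 in starved-father embryos. The groups overlapped, and the lowest value of all, 1 read, was in fed replicate 3. The means were 4.41 ± 2.55 and 3.23 ± 2.01 (SD, n = 6 each), and the log2 difference was -0.29 ± 0.45 (SE, 95% interval -1.21 to 0.63; limma adjusted p = 0.960; two-sided exact permutation p = 0.576). It was -0.66 without fed replicate 3 and -0.08 without starved replicate 1.

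Of the other genes of apoptosis (22 of 28 with a row), 9 lay higher and 13 lower on the log2 scale in starved-father embryos, the median difference being -0.04, and 0 passed limma's test. The effector gene baxa, which p53 induces in mammals and which was named here for its role, was at 40.7 ± 7.31 in fed-father embryos and 42.2 ± 6.72 in starved-father embryos (SD, n = 6 each; log2 difference 0.05 ± 0.18, SE; limma adjusted p = 0.988). The 4 with the smallest p were bcl2l10, siva1, bida and mcl1a. The survival gene bcl2l10 ran from 3.92 to 13.1 in fed-father embryos and from 0.63 to 5.11 in starved-father embryos. Its log2 difference was -1.08 ± 0.37 (SE, limma unadjusted p = 0.00717, adjusted p = 0.810). It was lower in 6 of 6 same-numbered pairs, as were 2.70% of all genes. The apoptosis gene siva1, a p53 target in mammals, was at 12.8 ± 2.42 and 18.9 ± 4.51 and the higher of the pair in starved-father embryos in all 6. The share of all genes higher in all 6 pairs was not counted. The death effector gene bida was at 19.7 ± 4.39 and 14.0 ± 2.78, and the survival gene mcl1a at 28.3 ± 7.51 and 23.6 ± 10.1 (SD, n = 6 each). For siva1, bida and mcl1a the limma adjusted p was 0.885, 0.885 and 0.938.

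Sestrin 1, encoded by sesn1 (ENSDARG00000020693, chromosome 20, bases 32152355 to 32231157), is a p53 target that restrains the growth kinase mTORC1. Its highest value was 1.94 times its lowest over the 12 libraries, against 4.13 times for ccng1 and 4.50 times for mdm2. For cdkn1a, phlda3 and gadd45aa, with 0 or 1 read in the lowest library, this ratio was not compared. The lowest, median and highest values were 36.1, 48.9 and 70.2 in fed-father embryos and 36.4, 43.0 and 55.3 in starved-father embryos. Fed replicates 1 and 3, at 70.2 and 58.0, lay above the starved range, and the other 4 fell within it or, as fed replicate 6, just below it. The means were 50.1 ± 12.7 and 44.5 ± 8.06 (SD, n = 6 each), and the log2 difference was -0.15 ± 0.19 (SE, 95% interval -0.54 to 0.24; limma adjusted p = 0.949; two-sided exact permutation p = 0.418). Without fed replicate 1 it was -0.05.

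The other genes of metabolism and DNA repair (17 of 23 with a row) held the single gene of the wider pathway that was called with the replicate block. Of these, 8 lay higher and 9 lower on the log2 scale in starved-father embryos, the median difference being -0.03, and 0 passed limma's test without a block. The ribonucleotide reductase gene rrm2 (ENSDARG00000078069, chromosome 19, bases 47564890 to 47571808), which supplies deoxynucleotides to dividing cells, had lowest, median and highest values of 58.6, 114 and 160 in fed-father embryos and 21.2, 77.7 and 102 in starved-father embryos. Its relative rrm2b, the subunit that p53 induces in mammals, had 7.87, 12.2 and 17.2 against 0.66, 7.30 and 11.4. The groups overlapped for both, and both were lower in the library of starved fathers in 6 of 6 same-numbered pairs, as were 2.70% of all genes.

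The log2 differences were -0.88 ± 0.31 for rrm2 and -1.14 ± 0.41 for rrm2b (SE; limma adjusted p = 0.845 for both). Blocking on the replicate number, limma called 0.285% of all genes (39), among them rrm2 (adjusted p = 0.00683) but not rrm2b (adjusted p = 0.110). In that fit 0 of mdm2, cdkn1a, ccng1, gadd45aa, phlda3 and sesn1 passed, and the smallest adjusted p was that of ccng1 (limma, 0.427). At an unadjusted p below 0.05 the fit held 1 of these 6, ccng1 (limma, 0.0209), against 9.21% of all genes. The rrm2 call remained with each same-numbered pair of libraries left out in turn (limma adjusted p between 0.00595 and 0.0404). It was lost with the description code as the block, where the log2 difference of rrm2 was again -0.88 (limma adjusted p = 0.207). In the authors' deposited table rrm2 had a log2 fold change of -0.85 at an FDR of 0.00122, and rrm2b -1.21 at 0.0566. These come from the same libraries and are not independent of the fits here. The list that holds rrm2 was chosen with earlier results of these data known. A second locus of the name rrm2 on chromosome 20 was at 6.58 ± 12.9 and 5.08 ± 10.1 (SD, n = 6 each), and reads of similar copies may be split. Beside rrm2, 17 genes of proliferation (11 higher, 6 lower) had a median of 0.08 for their log2 differences, and the replication clamp gene pcna was at 416 ± 28.6 and 477 ± 38.4. The glycolysis regulator gene tigarb was at 0.52 ± 0.48 and 1.55 ± 1.03, on 0 to 9 reads (limma adjusted p = 0.896).

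**Figure D3:**
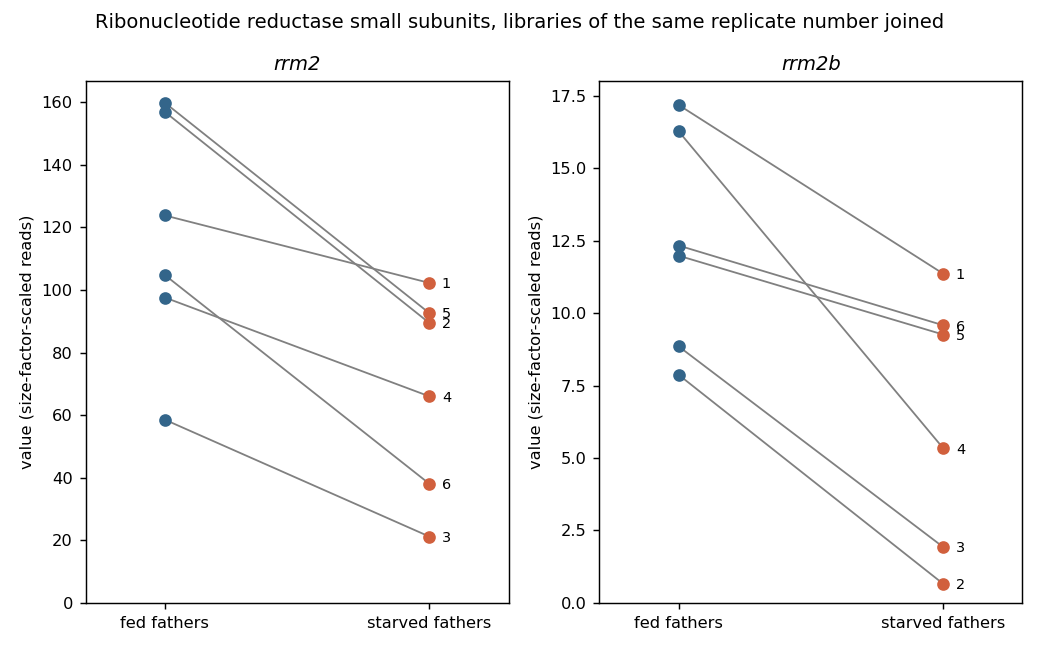
Values (size-factor-scaled reads) of rrm2 and rrm2b, with libraries of the same replicate number joined by a line and numbered at the right. All 12 lines fall from fed to starved fathers, and the starved values of rrm2 run from 21.2 to 102.

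**Figure D4:**
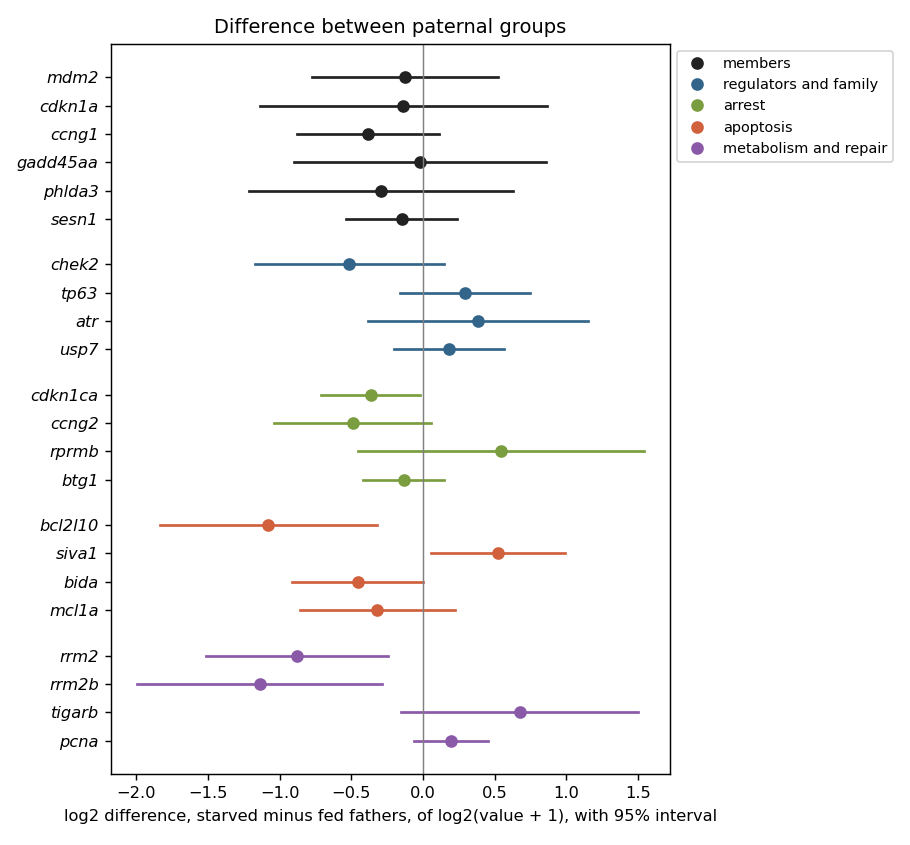
Log2 difference (starved minus fed fathers, of log2(value + 1), n = 6 each) with its 95% interval from limma without a block, for the 6 genes (black) and the 4 genes with the smallest p of each other list. The intervals of all 6 include 0, and the point furthest from 0 is rrm2b at -1.14.

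The 12 libraries were also compared by description code, although the labels do not say what a code stands for. An F test of the 5 codes beside paternal group (limma) called 1.12% of all genes (153) at an adjusted p below 0.05 and 0 of the 6. At an unadjusted p below 0.05 it held 2 of the 6, ccng1 and phlda3, against 11.9% of all genes.

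By code, the mean value of ccng1 was 59.9 in code 1210, 84.7 in 1203, 87.1 in 1118, 111 in 1219 and 142 in 1242, with 2 libraries in each code and 4 in 1242. Both libraries of 1210 lay below all other libraries, and the range between code means was 1.15 on the log2 scale (limma unadjusted p = 0.00346, adjusted p = 0.140). The call was reached when replicates 5 and 6 of each group, which share a code, were averaged (adjusted p = 0.0182) and without fed replicate 6 (0.0390), where limma called 613 and 323 genes in all, against 153. For phlda3 the code means ran from 0.87 in 1210 to 6.45 in 1219 (limma unadjusted p = 0.0362, adjusted p = 0.374). For mdm2 they ran from 11.8 in 1203 to 26.0 in 1219 (adjusted p = 0.630), with the 4 libraries of 1242 spread from 7.20 to 26.6. The smallest range was that of sesn1, from 40.8 in 1242 to 54.8 in 1118 (limma adjusted p = 0.863).

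In the wider pathway 4 of 72 genes passed the code test, against 1.12% of all genes, with 11 at an unadjusted p below 0.05, against 11.9%. The 4 that passed were ddit4, sesn3, mcl1b and rrm2. The mTORC1 inhibitor gene ddit4, also called REDD1, was at 41.0 and 40.2 in the fed and starved libraries of code 1219 and between 3.69 and 14.2 in the other 10 (limma adjusted p = 0.00528). The sestrin gene sesn3 was at 144 and 95.9 in code 1219 and between 16.1 and 67.4 elsewhere (adjusted p = 0.0188), and the survival gene mcl1b at 117 and 104 against 28.2 to 50.5 (adjusted p = 0.00751). Both libraries of code 1219 thus stood above all others for these 3 genes, whereas sesn1 was at 46.4 and 55.3 there, within its range elsewhere. They also had the lowest muscle marker sum of their paternal group, 5874 and 12096, and whether this bears on the values was not tested. For rrm2 (limma adjusted p = 0.0345) the lowest value of each group was in code 1210, at 58.6 and 21.2.

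The call of ddit4 and mcl1b was lost without either library of code 1219 (limma adjusted p 0.193 to 0.371), as was that of sesn3 (0.325 to 0.398), which was also lost without fed replicate 1 (0.0525) or starved replicate 2 (0.0546) and with a minimum mean of 5 (0.0570). Without either library the range between code means stayed close to that with all 12, at 2.81 and 2.81 for ddit4 (2.81 with all), 1.73 and 1.93 for mcl1b (1.83) and 2.12 and 2.23 for sesn3 (2.18), all on the log2 scale. The call of rrm2 by code was lost without any of fed replicates 1 to 4 or starved replicates 1 to 4 (0.0525 to 0.509), with a minimum mean value of 5 (0.0844) and with edgeR (0.103). The genes called by the code test numbered 17 without fed replicate 4 and 28 without starved replicate 4. Without both the test called 1 gene in all and 0 of the 72. The range between code means then fell to 0.99 for ddit4, 0.82 for sesn3 and 0.33 for mcl1b, whereas that of rrm2 was 1.72 as before (limma adjusted p = 0.271).

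**Figure D5:**
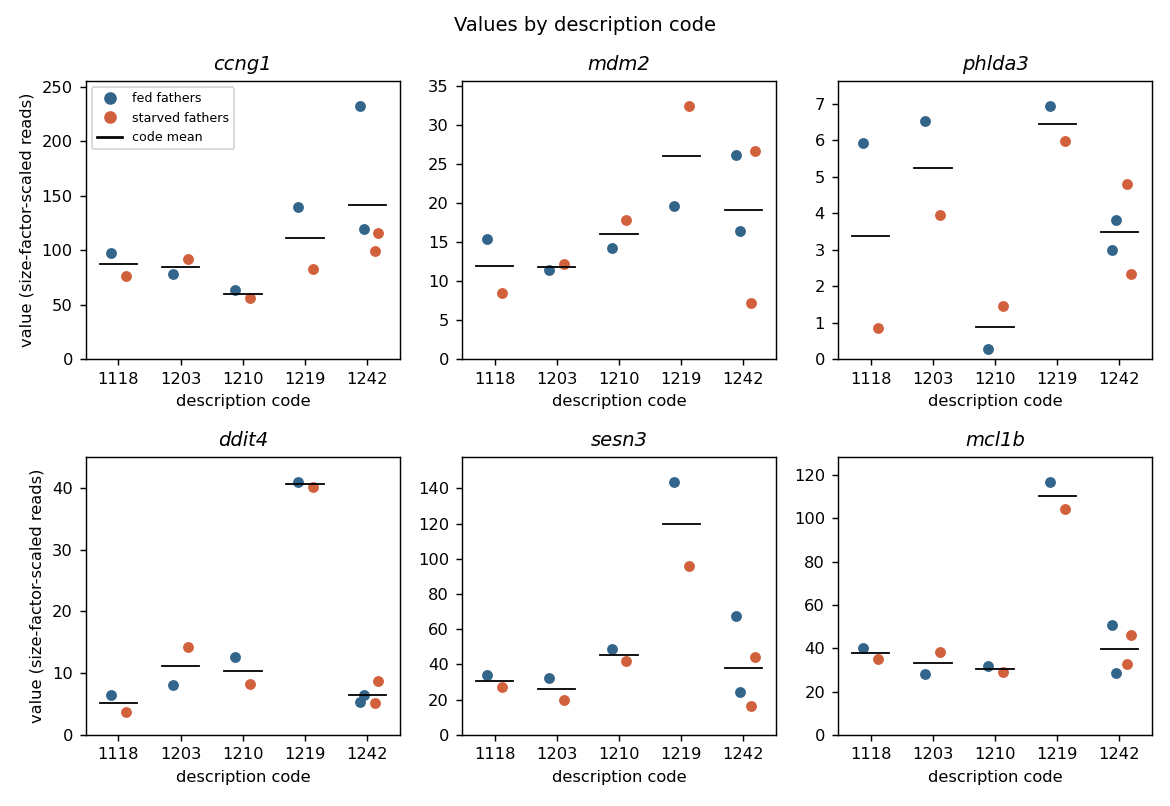
Values (size-factor-scaled reads) by description code, with 2 libraries in each code and 4 in code 1242, points coloured by paternal group and a bar at the mean of each code. Code 1210 is lowest for ccng1 and phlda3, and code 1219 stands apart for ddit4, sesn3 and mcl1b, with ddit4 at 41.0 and 40.2.

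No pair of the 6 genes was shown to vary together. Of 15 pairs, correlated over the 12 libraries on the log2(value + 1) scale, 0 passed a permutation test adjusted over the 15 pairs. The closest pair was mdm2 and gadd45aa (Pearson r = 0.743, permutation p = 0.00616, adjusted p = 0.0924; Spearman rho = 0.762, permutation p = 0.00571, adjusted p = 0.0856). Without starved replicates 4 and 5, the libraries farthest from the median of mdm2, r was 0.852. With values centred within codes it was 0.880. Both genes were low in starved replicates 1 and 5 and high in starved replicate 6, while gadd45aa rests on at most 17 reads. In a code of 2 libraries the centred values mirror each other. Coefficients within codes thus rest on fewer independent values than 12, and they were not tested. For cdkn1a and mdm2, the textbook pair of p53 targets, r was 0.292 (permutation p = 0.353, adjusted p = 0.660) and rho was 0.287 (permutation p = 0.363, adjusted p = 0.728), with r = 0.218 without starved replicates 4 and 5 and 0.0902 within codes. For cdkn1a and phlda3 the coefficient was negative, r = -0.400 (permutation p = 0.198, adjusted p = 0.660) with rho = -0.364 (permutation p = 0.248, adjusted p = 0.728), -0.355 without fed replicates 1 and 5, and -0.812 within codes.

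The mean of the centred log2 values of ccng1, sesn1, mdm2 and cdkn1a, the members with a mean value of at least 5, was highest in fed replicate 5 (0.76) and fed replicate 4 (0.45) and lowest in starved replicate 5 (-0.56) and fed replicate 2 (-0.39). Among 5800 other named genes with a mean value of at least 10, those most like it over the 12 libraries were the hatching enzyme gene he1.2 (Pearson r = 0.850), the cargo receptor gene lman2 (0.841), palm3 (0.832), tmem110l (0.818), xpr1b (0.817), rida (0.814), rnaseka (0.808) and the lysosomal enzyme gene hexb (0.804). These were picked for their likeness, so the coefficients are a description. The genes of the mean were not shown to vary together, and cdkn1a, on 1 to 36 reads, had the widest range of log2 values among them. The mean was thus not shown to be a shared pattern of p53 targets. For he1.2 the group means were 706 ± 489 and 599 ± 210 (SD, n = 6 each).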

How the data were processed

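Libraries were made with a 3' kit (QuantSeq, forward) per the labels' protocols. Alignment with STAR, comparison with edgeR and the build GRCz11 (danRer11) are named in the submitters' processing notes; their versions, the counting, the use of strand and the rule for listing genes were not given in the sources. The authors deposited 1 table with a log2 fold change, an FDR (an adjusted p-value) and 12 library columns per gene. The deposited library values are a signal, reads divided by a size factor, as found from the values: 100% came within 0.03 reads of a whole number. Columns of other series were 0.

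The 6 genes, the lists and the tests were chosen with earlier results of these data known. The comparison of starved with fed fathers was made with limma 3.58.1 in R 4.3.3 (trended variance) on log2(value + 1) over all 13680 genes, with Benjamini-Hochberg adjustment, a threshold of 0.05 and no block; this scale understates the change of low genes. A second fit tested the 5 description codes beside paternal group. Single genes also had an exact two-sided permutation test of the 12 libraries, in which the smallest possible p is 0.00216. It took no account of the pairing by replicate number. Correlations used 100000 permutations. edgeR 4.0.16 with TMM, limma-voom and DESeq2 1.42.0 on recovered reads were alternatives, beside pseudocounts of 0.5 and 5, a minimum mean of 5, blocks, averaged replicates and libraries left out.

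Libraries of the same replicate number deviated together from their group means over 6425 genes with a mean value of at least 10. For the 6 numbers r was between 0.141 and 0.523, and the numbers were taken to pair the libraries. For numbers 1 to 4 they coincide with the description codes, and for numbers 5 and 6 with the code letters D and E. Fed replicate 5 was closer to starved replicate 4 (r = 0.319) than to starved replicate 5 (0.269). Likewise fed replicate 6 was closer to starved replicate 3 (0.302) than to starved replicate 6 (0.177). The labels thus pair numbers 5 and 6 by letter, while these correlations do so less clearly. No 2 libraries of a group were duplicates (chi-square per degree of freedom at least 6.33). The tests were tried on counts simulated for 13680 genes. The changed genes were drawn only from those with a mean value of at least 5. The recovery thus does not cover phlda3 (mean 3.82) and gadd45aa (1.44), and cdkn1a (5.07) lies at its edge. For starved against fed, limma found 39 of 100 that were changed 2-fold, 93 of 100 changed 4-fold and 5 unchanged genes. For the codes it found 3, 61 and 12. With so many changed genes the adjusted threshold is easier to pass than in the real fit, which called 0 of 13680. The recovery is thus too high for a single changed gene. The simulated counts held no pairing of libraries, and the fit with the replicate block was not simulated.

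Named genes were the 6 with a row, from each other list the 4 with the smallest unadjusted p and any called gene, and the 8 genes most like the members. Where a name had several rows the row listed first was used. For rrm2 and the yolk layer marker afp4 this was the row with the smaller deposited FDR (0.00122 against 0.422 for rrm2). The choice was thus not independent of the comparison of paternal groups. No table of sequences was used here.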

Additional observations from a re-analysis of the deposited data

Results flagged for a closer look

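Values of 25 genes named in the report were checked in both paternal groups, 50 sets of 6 libraries, for a library whose gap to its neighbour exceeded Dixon's 95% critical share of the group's range, which chance gives in about 1 set in 20. This flagged 7 values, none of them of the 6 p53 pathway genes that had a row. Of the 7, 6 belong to replicate 4, code 1219, in both groups. The genes of these 6, mcl1b, sesn3 and ddit4, were among the 25 because the test of codes had called them, so their flags repeat that choice and cannot be read against the chance rate. In fed replicate 4 mcl1b was at 117 (next value 50.5), sesn3 at 144 (67.4) and ddit4 at 41.0 (12.6). In starved replicate 4 mcl1b was at 104 (46.3), sesn3 at 95.9 (44.4) and ddit4 at 40.2 (14.2). The remaining one was pcna in fed replicate 2, at 472 (next value 418).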

How the results depend on the processing

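Over 31 other settings 0 of the 6 genes passed the comparison of paternal groups; with a minimum mean value of 5 only 4 of them were tested, without gadd45aa and phlda3, here and in the code test. Over all genes and over the 72 other pathway genes the calls were 39 and 1 (rrm2) with the replicate block, 18 and 1 with edgeR and that block, and 1 and 0 with the description code as a block, where rrm2 was not called. With the block and replicates 1 to 6 left out in turn they were 33, 10, 48, 30, 12 and 43 over all genes, and 1 each time in the pathway. The block changed no other call of a named gene. The code test called 84 genes, 0 of these 4 and 2 of the other pathway genes with a minimum mean value of 5, and 613, 1 and 5 with replicates 5 and 6 averaged. Without single libraries it called 17 to 343, 0 to 1 and 0 to 4, and without code 1219 it called 1, 0 and 0.

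Small log2 differences turned sign. Fed replicates 4 and 5 held the highest mdm2 values of their group (19.6 and 26.2), so leaving them out had to raise its difference. For mdm2 and gadd45aa the plain means were higher in starved-father embryos. Other causes were not tested. For mdm2 the value was 0.030 with edgeR, 0.031 with DESeq2, 0.084 without fed replicates 4 and 5, 0.19 without starved replicates 2 and 5, 0.00502 and 0.19 with the block without replicates 1 and 5, and -0.34 to 0.069 without single libraries. For cdkn1a it was 0.087 with limma-voom, 0.0013 with replicates 5 and 6 averaged and 0.42 without fed replicates 4 and 5. With the block it was 0.18, 0.030 and 0.29 without replicates 3, 4 and 5, and without single libraries -0.54 to 0.12. Against -0.14 in the main fit, cdkn1a also fell to -0.57 with edgeR, to -0.57 with DESeq2 and to -0.63 with the block without replicate 1. For gadd45aa it was 0.23 with edgeR, 0.24 with DESeq2, 0.022 with a pseudocount of 5, 0.090 with replicates averaged, 0.11 without fed replicates 4 and 5, 0.19 without starved replicates 2 and 5, 0.11 and 0.23 with the block without replicates 1 and 5, and -0.26 to 0.20 without single libraries. With the block and without replicate 1 phlda3 was at 0.030, and without fed replicates 4 and 5 usp7 was at -0.078. The log2 differences of ccng1 and sesn1 kept their sign in all 31, but that of sesn1 shrank to -0.047 without fed replicate 1 and to -0.017 with the block without replicate 1. Recovery by read depth was not simulated. The correlation of mdm2 and gadd45aa passed the adjusted threshold without starved replicate 4 (permutation adjusted p = 0.0187).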

Other observations

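Relatives of the 6 genes lay at other levels in the same embryos. Among the gadd45 genes, the mean over the 12 libraries was 5.61 for gadd45ba, 4.20 for gadd45ga and 2.34 for gadd45ab, all above gadd45aa (1.44). The highest value of gadd45ga was 11.8, in fed replicate 4, followed by 10.4 in starved replicate 4. The antiproliferative gene btg2, also an immediate early gene, was at 167 in starved replicate 2 and 129 in starved replicate 5 and between 19.0 and 81.3 in the other 10 libraries. These are the libraries with the highest immediate early scores (1.75 and 0.83), but btg2 is itself part of that score. In these libraries cdkn1a was at 6.60 and 1.72 and mdm2 at 12.2 and 7.20. Among the genes of cell death, perp (mean 53.9), mcl1b (48.5), baxa (41.5) and casp3a (29.0) were the most abundant, and pmaip1, a BH3-only target of p53 in mammals, was low at 3.52.

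The ribosomal protein gene rps27l, a p53 target in mammals, was at 78.9 in fed replicate 4 and 72.6 in fed replicate 5, above the 26.0 to 47.5 of the other 10 libraries, and did not pass the test of paternal groups (limma adjusted p = 0.943) or of codes (limma adjusted p = 0.271). These genes were picked after their values were seen.

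Over the marker lists the median log2 difference between embryos of starved and of fed fathers was 0.07 for 16 immediate early genes, 0.39 for 25 skeletal muscle genes, -0.53 for 20 yolk layer genes, 0.02 for 20 neural genes, 0.02 for 12 blood genes and -0.28 for 6 macrophage genes; 0 genes of these lists passed limma's test without a block. Over all genes the median was -0.01, and without a block limma called 0 of 13680. Once the replicate number was a block, limma called 0.285% of all genes (39). Among them were 5 of the skeletal muscle, 7 of the yolk layer, 1 of the blood and 1 of the macrophage genes. In that fit 0 of the immediate early and neural genes were called.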
